A study of Mus musculus with 8 samples.

Results

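The heat shock chaperones of bone marrow-derived macrophages were read from every array probe whose gene symbol was one of 10 listed names: Hspa1a, Hspa1b, Hspa8, Hsp90aa1, Hsp90ab1, Hspd1, Hspe1, Dnajb1, Dnaja1 and Hsf1. Of these, 9 genes were on the array with 14 probes, out of 18138 symbols on 25697 probes, and Hspa1b had no probe. The cells came from bone marrow of female C57bl/6J mice aged 8 weeks and were grown for 7 days in GM-CSF at 10 ng/ml, a cytokine that turns marrow precursors into macrophages. Wild-type (WT) and iNOS-/- cells were each left unstimulated or turned into M1 cells, which gave 4 groups of 2 arrays, and all 4 shared the GM-CSF culture. M1 cells had received LPS, a bacterial cell wall component, at 200 ng/ml together with the cytokine IFN-γ at 10 ng/ml for 6 h. The iNOS-/- mice, which the labels give as C57bl/6J too and the methods as B6.129P2-Nos2tm1Lau/J, carry a targeted allele of Nos2, the inducible nitric oxide synthase, in every cell and not only in macrophages. Nothing in the labels ties the arrays of a group to separate animals or cultures, so p-values measure the spread between arrays alone, which may be technical.

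Heat shock chaperones bind unfolded or partly folded proteins and let them refold. HSP70 proteins act with J-domain proteins such as Dnajb1 and Dnaja1, which hand over the client and start ATP hydrolysis, whereas HSP90 works later on nearly folded clients such as kinases and steroid receptors. Hspd1 and Hspe1, known as HSP60 and HSP10, form the folding chamber inside mitochondria. Hsf1 is the transcription factor that induces many of these genes after heat or other protein damage, by binding repeated GAA units called heat shock elements, and in macrophages the pathway is known to cross with inflammatory signalling.

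Levels are given as log2 of the intensity after each array was scaled to a common level, with values under 1 set to 1, so they compare a probe between arrays and never 1 probe with another. A probe counts as detected on an array where its detection p-value, the share of negative control probes brighter than it, was under 0.05. The arrays detected between 11833 and 12673 probes (46.0% to 49.3%), and the median absolute log2 difference between both arrays of a group was 0.161 to 0.187. Of the 14 chaperone probes, 12 (all 9 genes) were detected on at least 2 of the 8 arrays and were tested together with 13868 probes in all. A probe is called where limma's adjusted p, by Benjamini-Hochberg adjustment over all tested probes, was under 0.05. The remaining 2 probes were not tested: an Hsp90aa1 probe at position 17 of its transcript was detected on 1 array, iNOS-/- M1 replicate 1, and a Dnaja1 probe at position 2957 on 0 of 8.

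Stimulation showed in every M1 array. Il6, a macrophage cytokine, stood at 10.16 ± 0.02 (SD, n = 2) in WT M1 and 12.02 ± 0.08 in iNOS-/- M1, and was not detected in WT unstimulated cells. Nos2, the targeted gene, was not detected in either unstimulated group and stood at 7.26 ± 0.30 in WT M1 and 7.58 ± 0.13 in iNOS-/- M1, at least 27.2-fold and at least 38.4-fold above the unstimulated groups. Its probe therefore did not check the genotype, so each direction between genotypes below rests on the labels. The 10 macrophage marker symbols were all detected on all 8 arrays, and 5 of 6 T, B and NK cell symbols and 3 of 4 stromal symbols on none. Macrophage markers were not equally bright: their summed scaled intensity was 42330 to 43210 in WT and 32950 to 34960 in iNOS-/- unstimulated arrays. In M1 arrays the sums overlapped, at 44390 to 48610 in WT and 47210 to 47320 in iNOS-/- cells.

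The choice of scaling matters for bright probes. Of 1013 tested probes with a mean log2 level of 10 or more, the median M1 response in iNOS-/- cells was 0.26 after the rank-invariant scaling used here, and -0.31 after both quantile normalization and neqc, a background correction with quantile normalization. Between the M1 groups the same median was 0.23 as used here and -0.19 under both alternatives. For all tested probes the median M1 response of iNOS-/- cells was 0.00 here, -0.13 under quantile normalization and 0.20 under a rank-invariant line with an intercept. With that intercept the median was also 0.24 between the M1 groups, -0.12 between the unstimulated groups and 0.33 for the difference between responses, against -0.03, 0 and -0.05 here, and in WT cells the median M1 response was 0.09 here and -0.10 with the intercept. Results for Hspa8 and Hsp90ab1, whose probes are bright, are given with those alternatives beside them.

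Across the 12 tested probes, the chaperones moved in both directions in most comparisons. In the M1 response of WT cells 3 probes rose and 1 fell, which is 33.3% of the chaperone probes where 35.1% of all tested probes were called (20.8% higher and 14.3% lower). The M1 response of iNOS-/- cells also had 3 probes up and 1 down, or 33.3% against a background of 50.3% (25.2% higher and 25.1% lower). Between the M1 groups, 4 probes were higher in iNOS-/- cells and 1 was lower, or 41.7% against 48.2% (22.9% of all tested probes higher and 25.3% lower). Between the unstimulated groups, 0 probes were higher and 2 were lower in iNOS-/- cells, or 16.7% against 32.2% (16.7% higher and 15.4% lower). The response itself differed between genotypes for 4 probes, 3 higher and 1 lower in iNOS-/- cells, or 33.3% against 42.0% (19.4% higher and 22.6% lower). The share called among the chaperones was thus below the background in each of the 5 comparisons in the scaling used here. The genes are described below as single probes. Other scalings did not keep this order. Under quantile normalization, 25% of the chaperone probes were higher and 50% lower between the M1 groups. The background there was 21.9% and 25.5%. In the iNOS-/- response the chaperone share stayed below the background under quantile normalization and neqc. In the scaling used here, the median log2 difference over the 12 probes was 0.07 in the WT response, 0.19 in the iNOS-/- response, -0.10 between the M1 groups and -0.15 between the unstimulated groups. All tested probes had medians of 0.09, 0.00, -0.03 and 0. These comparisons share arrays with each other, each group of 2 arrays entering more than 1 of them.

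With 2 arrays a group, arrays that did not overlap were common among all probes. Between the M1 groups, 4 chaperone probes were higher and 5 lower in iNOS-/- cells without overlap, where 74.8% of all tested probes did not overlap (36.6% higher and 38.2% lower). In unstimulated cells these counts were 3 and 5, against 69.8% (35.0% and 34.8%). The WT response had 5 probes higher and 4 lower without overlap, against 71.3% (39.9% and 31.4%). The iNOS-/- response had 8 higher and 2 lower, against 77.2% (38.9% and 38.2%).

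**Figure D1:**
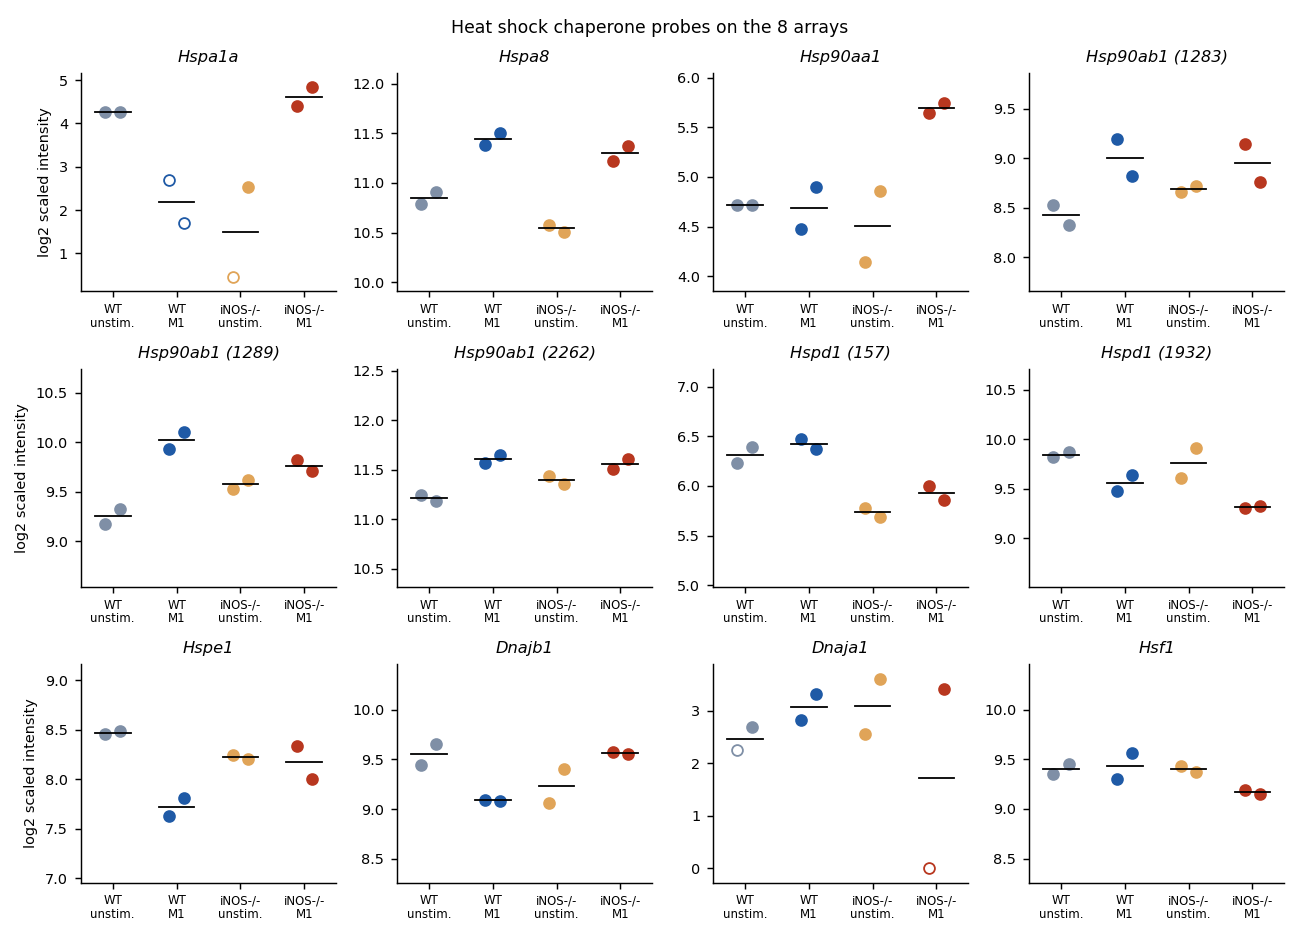
Log2 scaled intensity (vertical axis) of the 12 tested chaperone probes on the 8 arrays, 2 arrays for each of the 4 groups on the horizontal axis. Filled circles are arrays where the probe was detected, open circles arrays where it was not, bars the group means, and a number in brackets the probe's position in its transcript. Hspa1a is high in WT unstimulated and iNOS-/- M1 arrays and low in both other groups, whereas Hspa8 is high in both M1 groups.

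Hspa1a, the stress-induced HSP70 of the cytosol, had the widest range of levels among the detected probes, 4.38 log2 units over 8 arrays. Its values were 4.26 and 4.27 in WT unstimulated arrays, 2.69 and 1.70 in WT M1 arrays, 0.45 and 2.53 in iNOS-/- unstimulated arrays, and 4.40 and 4.83 in iNOS-/- M1 arrays. The WT unstimulated and iNOS-/- M1 arrays were all high and all detected, whereas the probe was detected on neither WT M1 array and on only 1 of 2 iNOS-/- unstimulated arrays. The signal was dim even where it was high, between 19.1 and 28.5 scaled intensity units on the 4 high arrays, and the first WT M1 array missed detection narrowly, with a detection p-value of 0.0501.

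In iNOS-/- M1 cells the Hspa1a mean was at least 3.58-fold higher than in WT M1 cells, with measured group means of 4.62 and 2.20. This bound, like that for the WT groups below, compares group means alone and leaves out the spread between arrays. The log2 difference was 2.42 (SE 0.72, adjusted p = 0.0406), with an interval from 0.60 to 4.25. Over 18 alternative settings it ran from 0.62 to 2.92. The lowest value lay below the bound, which is 1.84 on that scale. In unstimulated cells the order was the opposite, with iNOS-/- lower by 2.77 on the log2 scale (SE 0.72, adjusted p = 0.0374). Within genotypes, Hspa1a rose in iNOS-/- cells on stimulation by 3.13 (SE 0.72, adjusted p = 0.0165). The WT M1 mean was at least 2.8-fold lower than the WT unstimulated mean, but this was not called (adjusted p = 0.0797), although it was called on leaving out either iNOS-/- unstimulated array (adjusted p = 0.0223), under quantile normalization (-2.45, adjusted p = 0.0449), neqc (-0.81, adjusted p = 0.000350) and the intercept line (-2.15, adjusted p = 0.00975). The difference between both responses was 5.19 (SE 1.02, adjusted p = 0.0124), the only one of the Hspa1a results that was called in every one of the 17 alternative settings that could be fitted. Since the low groups lie at or near the detection limit, the sizes depend on the floor: with values under 16 set to 16, the difference between responses was 0.88 (adjusted p = 0.0265), under neqc it was 1.82 (adjusted p = 1.36e-05), and with that floor the difference between unstimulated groups was -0.26 and no longer called (adjusted p = 0.270).

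Some of the Hspa1a calls were lost when 1 array was left out. Leaving out an array also changes the shared estimate of the spread, so a call can be lost while its difference stays the same. The M1 difference stayed at 2.42 without either WT unstimulated array, which is not part of it. The M1 difference was lost on leaving out either array of WT unstimulated, WT M1 or iNOS-/- M1 cells (2.42 in the full fit, 1.93 to 2.92 over all 8 omissions, adjusted p 0.0666 to 0.164 where lost). The unstimulated difference was lost without any array other than iNOS-/- unstimulated replicate 2 (-2.77 in the full fit, -3.81 to -1.73 over the omissions, adjusted p 0.0554 to 0.128 where lost). The iNOS-/- response was lost without iNOS-/- M1 replicate 1 (3.34, adjusted p = 0.0526) or 2 (2.91, adjusted p = 0.0737), with 2.09 to 4.17 over the omissions.

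Genes of other cell types and of dividing cells also differed between the groups, and the sum over those of dividing cells was low where Hspa1a was high. A dim Cdc2a probe, detected on 2 arrays, went the other way. Its means were 0.98 in WT unstimulated, 0 in WT M1, 0.09 in iNOS-/- unstimulated and 3.06 in iNOS-/- M1 cells. Of 8 listed genes of dividing cells, 6 were on the array and 5 were detected on all arrays, with Ccnb2 on none. Their summed scaled intensity was 915 to 957 in WT unstimulated and 1059 to 1063 in iNOS-/- M1 arrays, where Hspa1a was high, and 3033 to 3180 in WT M1 and 3378 to 3411 in iNOS-/- unstimulated arrays, where it was low. Of 9 dendritic cell genes, 7 were detected on all arrays and Flt3 on none, and their sums ran from 409 to 453 in WT unstimulated and 4939 to 5066 in iNOS-/- unstimulated arrays to 6669 to 6795 in WT M1 and 19540 to 20720 in iNOS-/- M1 arrays. Granulocyte and mast cell genes, 3 of 9 detected on all arrays and Mpo on none, summed to 1144 to 1158, 1892 to 1971, 1455 to 1567 and 4132 to 4271 in the same order of groups. The sums are set mostly by bright genes, in iNOS-/- M1 cells Il4i1 (13.75) and S100a8 (11.50). Cd209a and Itgax were lower in iNOS-/- M1 (0 and 7.54) than in WT M1 cells (4.97 and 7.98), the other detected dendritic cell genes higher. Mmp8 was highest in WT unstimulated cells (7.52), where most others of its list were lowest. The part of these genes in the chaperone results was not tested, and in bulk RNA fewer cells of a type and less RNA per cell cannot be told apart.

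The genes whose pattern over the 8 arrays lay nearest to Hspa1a, among 9677 probes detected on all 8 arrays, were Tgif1, Tmem178 and Lhfp. Nearness was the root mean square difference of log2 values after each probe was centred on its own mean. It was 0.60 for Tgif1, 0.65 for Tmem178 and 0.72 for Lhfp, where the median probe lay at 1.50. Tgif1 stood at 5.24 in WT unstimulated, 3.63 in WT M1, 3.02 in iNOS-/- unstimulated and 5.23 in iNOS-/- M1 cells, the same order of high and low groups as Hspa1a.

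Hspa1a and its neighbour Hspa1b are near copies on chromosome 17, and whether the Hspa1a probe also reads Hspa1b transcripts was not tested. The 250 bases upstream of the Hspa1a start (RefSeq, GRCm38.p6, chr17:34972157-34972406, minus strand) are shown because they hold a match to the heat shock element. Capitals mark 2 neighbouring units, searched as GAANNTTC or TTCNNGAA on both strands.
Hspa1a: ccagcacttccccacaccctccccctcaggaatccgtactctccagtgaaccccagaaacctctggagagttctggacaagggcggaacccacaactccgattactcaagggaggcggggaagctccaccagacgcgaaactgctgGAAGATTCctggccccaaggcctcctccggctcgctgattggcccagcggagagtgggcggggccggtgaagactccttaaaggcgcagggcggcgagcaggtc
The match begins 104 bases before the start. The same stretch of Hspa1b was identical at 247 of 250 bases and held the same match at the same place. Of 32851 RefSeq promoters of 300 bases, 15.1% held at least 1 such 2-unit match and 0.603% a 3-unit match, which adds a unit in the same spacing. By gene, 17.0% and 0.662% of 27025 genes held such a match in at least 1 promoter. A RefSeq promoter was at hand for 6 of the 10 listed genes, of which 5 held a 2-unit match in at least 1 promoter and 2 a 3-unit match. These are not all separate matches: Hspa1a and Hspa1b are near copies, and Hspd1 and Hspe1 hold the same stretch on opposite strands. Such a match describes the letters only. Promoters of Hspa8, Hsp90aa1, Hsp90ab1 and Hsf1 were not analysed here.

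Hspa8, the HSP70 that cells make constantly, was raised by stimulation in both genotypes. It stood at 10.79 and 10.91 in WT unstimulated arrays and at 11.38 and 11.50 in WT M1 arrays. In iNOS-/- cells it stood at 10.58 and 10.51 unstimulated and at 11.22 and 11.38 in M1. Every M1 array was above every unstimulated array. The rise was 0.59 in WT cells (SE 0.10, adjusted p = 0.0106) and 0.75 in iNOS-/- cells (SE 0.10, adjusted p = 0.00269), or 1.51-fold and 1.69-fold. The responses differed by 0.16 (95% interval -0.21 to 0.54, adjusted p = 0.422). Both groups of iNOS-/- arrays lay below their WT counterparts, by 0.14 in M1 and 0.31 in unstimulated cells, neither of which was called (adjusted p = 0.308 and 0.0794).

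The size of the Hspa8 rise in iNOS-/- cells depended on the scaling. Under quantile normalization it was 0.22 (adjusted p = 0.104) and under neqc 0.22 (adjusted p = 0.0828), neither called, and the difference between responses turned to -0.41 (adjusted p = 0.0570) and to -0.40, which was called (adjusted p = 0.0325). Hspa8 was then called lower in iNOS-/- M1 than in WT M1 cells, by 0.57 under either (adjusted p = 0.00541 and 0.000597). The WT rise was lost without WT unstimulated replicate 1 or WT M1 replicate 2 (0.53 to 0.65 over the 8 omissions, adjusted p 0.0554 and 0.0571 where lost), and the iNOS-/- rise in no omission.

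Dnajb1, the J-domain partner that HSF1 induces together with Hspa1a, had values of 9.45 and 9.66 in WT unstimulated, 9.09 and 9.09 in WT M1, 9.06 and 9.40 in iNOS-/- unstimulated, and 9.57 and 9.56 in iNOS-/- M1 arrays. As for Hspa1a, WT unstimulated and iNOS-/- M1 arrays were the higher ones, although over a range of only 0.60. Dnajb1 was higher in iNOS-/- M1 than in WT M1 cells by 0.47 (SE 0.14, adjusted p = 0.0424), or 1.39-fold. The response differed between genotypes by 0.80 (SE 0.20, adjusted p = 0.0277), although neither response was called alone, with -0.46 in WT (adjusted p = 0.0573) and 0.34 in iNOS-/- cells (adjusted p = 0.107). The difference of -0.33 between unstimulated groups was not called (adjusted p = 0.148). Leaving out either iNOS-/- unstimulated array made the WT response called (adjusted p = 0.0410), and leaving out replicate 2 of them the iNOS-/- response (0.51, adjusted p = 0.0445).

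Both Dnajb1 calls were near the threshold. Under quantile normalization the M1 difference was 0.25 (adjusted p = 0.226) and the difference between responses 0.46 (adjusted p = 0.144), and neqc gave 0.25 (adjusted p = 0.133) and 0.45 (adjusted p = 0.0625). The M1 difference was lost without either array of WT unstimulated, WT M1 or iNOS-/- M1 cells (0.47 to 0.48 over the 8 omissions, adjusted p 0.0555 to 0.130 where lost). The difference between responses was lost without any array except WT unstimulated replicate 1 and iNOS-/- unstimulated replicate 2 (0.63 to 0.97, adjusted p 0.0566 to 0.0808 where lost). Both RefSeq promoters of Dnajb1 held no 2-unit match in the window.

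Dnaja1, a J-domain protein of the cytosol, was measured too dimly for a comparison. Its tested probe was detected on 6 of 8 arrays, at 2.25 and 2.68 in WT unstimulated, 2.82 and 3.31 in WT M1, 2.56 and 3.61 in iNOS-/- unstimulated, and 0 and 3.42 in iNOS-/- M1 arrays. One iNOS-/- M1 array was the lowest of all 8, and the other lay within the range of the other groups. No comparison was called, and the difference of -1.35 between the M1 groups had an interval from -4.18 to 1.48. Without iNOS-/- M1 replicate 2, whose value was 3.42, the difference between M1 groups was called (-3.06, adjusted p = 0.0140), as were the iNOS-/- response (-3.08, adjusted p = 0.0124) and the difference between responses (-3.68, adjusted p = 0.0188), and each then rests on an array where the probe was not detected. With the intercept line, the difference between M1 groups turned to 0.08, the WT response from 0.59 to -0.22 and the difference between responses from -1.97 to 0.05. One of 3 Dnaja1 promoters held a 2-unit match, GAAAATTC, that begins 124 bases before its start.

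Hsp90aa1, the stress-induced HSP90 of the cytosol, was high in iNOS-/- M1 cells. It stood at 4.72 and 4.71 in WT unstimulated, 4.47 and 4.90 in WT M1, 4.14 and 4.86 in iNOS-/- unstimulated, and 5.64 and 5.75 in iNOS-/- M1 arrays. Both iNOS-/- M1 arrays lay above all 6 others, and the other 3 groups overlapped. Hsp90aa1 was 2.01-fold higher in iNOS-/- M1 than in WT M1 cells (log2 difference 1.01, SE 0.27, adjusted p = 0.0283) and rose 2.28-fold on stimulation of iNOS-/- cells (log2 difference 1.19, SE 0.27, adjusted p = 0.0152). The WT response was -0.03 (95% interval -0.71 to 0.65, adjusted p = 0.940). The responses differed by 1.22, just outside the threshold (SE 0.38, adjusted p = 0.0511), and this difference was called under quantile normalization (1.57, adjusted p = 0.0247), neqc (1.04, adjusted p = 0.00158), the intercept line (1.41, adjusted p = 0.0209) and without iNOS-/- unstimulated replicate 2 (1.58, adjusted p = 0.0185). The M1 difference was lost without either array of WT unstimulated or iNOS-/- M1 cells or WT M1 replicate 1 (0.80 to 1.22 over the 8 omissions, adjusted p 0.0536 to 0.122 where lost), and the iNOS-/- response without either iNOS-/- M1 array (0.83 to 1.55, adjusted p 0.0532 and 0.0659 where lost). The untested Hsp90aa1 probe gave no second reading.

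Hsp90ab1, the HSP90 that is made constantly, was read by 3 probes, which begin at positions 1283, 1289 and 2262 of its transcript. The probes at 1283 and 1289 share 44 of their 50 bases, marked in capitals, and are shown because they are nearly the same measurement and not separate evidence.
Hsp90ab1 at 1283: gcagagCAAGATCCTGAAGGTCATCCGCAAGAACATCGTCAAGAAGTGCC
Hsp90ab1 at 1289: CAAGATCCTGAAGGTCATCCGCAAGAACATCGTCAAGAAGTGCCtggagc
All 3 were higher in WT M1 than in WT unstimulated arrays without overlap. The probe at 1289 went from 9.17 and 9.33 to 9.93 and 10.10 in WT cells, and from 9.53 and 9.62 to 9.82 and 9.71 in iNOS-/- cells. The probe at 2262 went from 11.25 and 11.19 to 11.57 and 11.65 in WT cells, and from 11.43 and 11.36 to 11.51 and 11.61 in iNOS-/- cells. The probe at 1283 went from 8.53 and 8.32 to 9.19 and 8.82 in WT cells, and from 8.66 and 8.72 to 9.14 and 8.76 in iNOS-/- cells. In each case both iNOS-/- unstimulated arrays lay above both WT unstimulated ones. The M1 groups overlapped at 1283 and 2262, whereas at 1289 both iNOS-/- M1 arrays lay below both WT M1 arrays (-0.25, adjusted p = 0.117, not called).

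In WT cells the rise of Hsp90ab1 was called at 1289 (0.77, SE 0.11, adjusted p = 0.00561) and at 2262 (0.39, SE 0.09, adjusted p = 0.0221), or 1.70-fold and 1.31-fold, but not at 1283 (0.58, SE 0.19, adjusted p = 0.0700). At 1283 it was called under neqc (0.55, adjusted p = 0.0148) and the intercept line (0.61, adjusted p = 0.0497) and not under quantile normalization (0.57, adjusted p = 0.0749). In iNOS-/- cells none of the 3 was called, with 0.19, 0.16 and 0.26. The response at 1289 was smaller in iNOS-/- cells by 0.58 (SE 0.16, adjusted p = 0.0343), while the differences of -0.32 at 1283 and -0.23 at 2262 were not called (adjusted p = 0.391 and 0.196). Under quantile normalization and neqc, the iNOS-/- responses turned to -0.19 at 1289 under both (adjusted p = 0.199 and 0.157) and to -0.44 at 2262 under both, where they were called (adjusted p = 0.00914 and 0.00240). No Hsp90ab1 probe was called between genotypes in the scaling used here, whereas under both alternatives the probes at 1289 and 2262 were called lower in iNOS-/- M1 cells, by 0.47 to 0.54, and higher in iNOS-/- unstimulated cells, by 0.37 to 0.47. The difference between responses was then called at both, with -0.85 under quantile normalization and -0.84 under neqc at 2262 (adjusted p = 0.00483 and 0.000467) and -1.01 and -0.99 at 1289 (adjusted p = 0.00555 and 0.000316), but not at 1283, with -0.53 and -0.51 (adjusted p = 0.182 and 0.0752).

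The WT rise at 1289 was called in each of 18 alternative settings. That at 2262 was lost without any of the 4 WT arrays (0.35 to 0.43, adjusted p 0.0621 to 0.0989 where lost). The smaller response of iNOS-/- cells at 1289 was lost without any array except WT M1 replicate 1 (-0.66 to -0.49, adjusted p 0.0524 to 0.100 where lost).

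**Figure D2:**
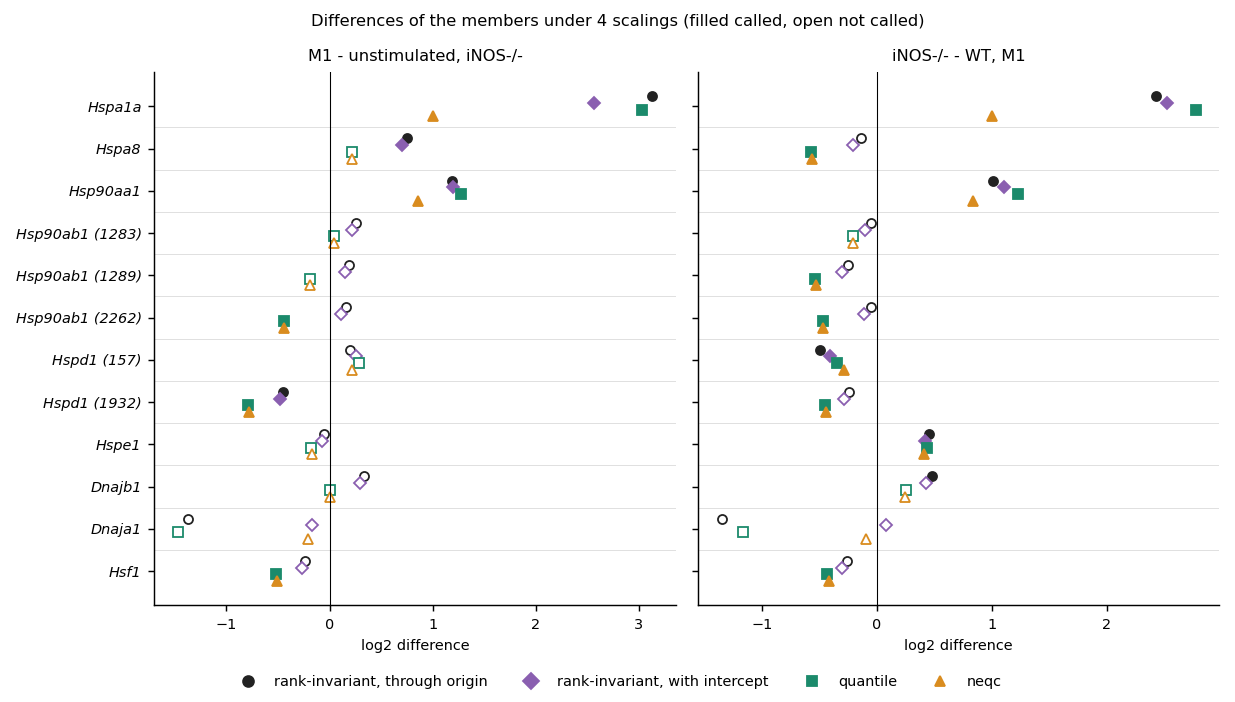
Log2 differences (horizontal axis) of the 12 tested chaperone probes, for iNOS-/- M1 minus iNOS-/- unstimulated on the left and iNOS-/- M1 minus WT M1 on the right, under 4 ways to scale the arrays. Filled symbols were called and open ones were not. Quantile normalization and neqc move the bright probes of Hspa8 and Hsp90ab1 to the left, at Hsp90ab1 2262 from 0.16 to -0.44 in the left panel, whereas Hsp90aa1 is called higher under all 4 scalings in both panels.

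Hspd1 and Hspe1, the mitochondrial chaperonin and its lid, were called in opposite directions between the M1 groups. In iNOS-/- cells Hspe1 was higher there and the Hspd1 probe at position 157 lower. Hspe1 stood at 8.45 and 8.48 in WT unstimulated, 7.63 and 7.81 in WT M1, 8.24 and 8.21 in iNOS-/- unstimulated, and 8.34 and 8.00 in iNOS-/- M1 arrays. The WT M1 arrays were the lowest of all 8. In WT cells Hspe1 fell by 0.75 on stimulation (SE 0.14, adjusted p = 0.0120), which is 1.68-fold, and in iNOS-/- cells the difference was -0.05 (95% interval -0.40 to 0.29, adjusted p = 0.774). Hspe1 was thus 1.37-fold higher in iNOS-/- M1 than in WT M1 cells (0.45, SE 0.14, adjusted p = 0.0431), and the response differed by 0.69 (SE 0.19, adjusted p = 0.0377). The unstimulated groups differed by -0.24, which was not called (adjusted p = 0.244).

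The Hspe1 calls kept their direction but several were lost when 1 array was left out. The M1 difference and the difference between responses were each lost without any array except iNOS-/- M1 replicate 2 (0.28 to 0.62 and 0.53 to 0.86, adjusted p 0.0735 to 0.169 and 0.0585 to 0.104 where lost). The fall in WT cells was lost without either WT unstimulated array or WT M1 replicate 1 (-0.84 to -0.66, adjusted p 0.0543 to 0.0605 where lost).

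Hspd1 was read by 2 probes, which differed in how the genotypes compared without stimulation. The probe at position 157 stood at 6.23 and 6.40 in WT unstimulated and 6.48 and 6.37 in WT M1 arrays, and at 5.78 and 5.69 in iNOS-/- unstimulated and 6.00 and 5.86 in iNOS-/- M1 arrays. All 4 WT arrays lay above all 4 iNOS-/- arrays. It was called lower in iNOS-/- cells both unstimulated (-0.58, SE 0.11, adjusted p = 0.0133) and in M1 (-0.50, SE 0.11, adjusted p = 0.0145), or 1.49-fold and 1.41-fold, and its responses to stimulation were not called (0.11 and 0.20). The probe at position 1932 stood at 9.82 and 9.87 in WT unstimulated, 9.47 and 9.64 in WT M1, 9.61 and 9.92 in iNOS-/- unstimulated, and 9.30 and 9.32 in iNOS-/- M1 arrays. Its unstimulated groups overlapped, with a difference of -0.08 (95% interval -0.41 to 0.25, adjusted p = 0.675). It was lower in M1, called in iNOS-/- cells (-0.45, SE 0.13, adjusted p = 0.0364) and not in WT cells (-0.29, adjusted p = 0.145). Both iNOS-/- M1 arrays lay below both WT M1 arrays at this probe too, by 0.24 (log2 difference -0.24, adjusted p = 0.187), which was called under quantile normalization (-0.45, adjusted p = 0.0355) and neqc (-0.44, adjusted p = 0.00822), while the unstimulated difference was 0.042 under each. Whether the probes read different transcripts of Hspd1 was not tested.

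Of both Hspd1 probes, that at 157 lost fewer calls on leaving out single arrays. Its M1 difference was lost without WT M1 replicate 1 (-0.44, adjusted p = 0.0692) or iNOS-/- M1 replicate 2 (-0.43, adjusted p = 0.0620). Its unstimulated difference was lost without WT unstimulated replicate 2 (-0.49, adjusted p = 0.0665) and without iNOS-/- unstimulated replicate 1 (-0.63, adjusted p = 0.0501) or 2 (-0.53, adjusted p = 0.0709). The fall at 1932 in iNOS-/- cells was lost without any array except iNOS-/- unstimulated replicate 1 (-0.60 to -0.29, adjusted p 0.0518 to 0.133 where lost).

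Hspd1 and Hspe1 lie on opposite strands of chromosome 1. Of the 2 annotated Hspd1 starts, 1 lies head to head with the Hspe1 start at a distance of 216 bases, and the other lies 95 bases past the Hspe1 start. The 250 bases before the Hspe1 start (RefSeq, GRCm38.p6, chr1:55087898-55088147, plus strand) are shown because this stretch holds the longest run of heat shock element units among the promoters of the listed genes at hand.
Hspe1: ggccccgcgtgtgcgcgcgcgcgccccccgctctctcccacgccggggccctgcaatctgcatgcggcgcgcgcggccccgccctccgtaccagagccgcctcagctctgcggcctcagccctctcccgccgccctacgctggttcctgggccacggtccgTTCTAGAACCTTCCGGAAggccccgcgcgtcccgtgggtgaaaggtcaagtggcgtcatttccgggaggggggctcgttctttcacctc
The 18 bases in capitals begin 89 bases before the start and hold 3 overlapping 2-unit matches and 2 overlapping 3-unit ones. The window before the head-to-head Hspd1 start, read on the minus strand, contains the same stretch as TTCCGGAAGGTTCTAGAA, from 144 bases before that start. The other Hspd1 window held no match. The shared stretch thus stands beside both genes. In the WT response Hspe1 fell by 0.75. Hspd1 at 1932 lay lower too, without overlap but not called (-0.29, 95% interval -0.62 to 0.04), and at 157 the difference was 0.11, not called. Whether both genes responded differently was not tested.

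Hsf1, the heat shock factor itself, had the narrowest range of the chaperone probes, 0.41 log2 units over the 8 arrays. It stood at 9.36 and 9.45 in WT unstimulated, 9.30 and 9.56 in WT M1, 9.43 and 9.37 in iNOS-/- unstimulated, and 9.19 and 9.15 in iNOS-/- M1 arrays. Both iNOS-/- M1 arrays were below the other 6, whose groups overlapped. None of the 5 comparisons was called: the difference between M1 groups was -0.26 (95% interval -0.55 to 0.03, adjusted p = 0.121) and that between unstimulated groups 0.00 (95% interval -0.29 to 0.29, adjusted p = 0.995). Under quantile normalization and neqc, Hsf1 was called lower in iNOS-/- M1 than in WT M1 cells, by 0.43 and 0.42 (adjusted p = 0.0267 and 0.00691), and lower than in unstimulated iNOS-/- cells, by 0.52 and 0.51 (adjusted p = 0.0125 and 0.00200). The difference between responses, -0.26 here (adjusted p = 0.256), was also called under both, at -0.56 and -0.54 (adjusted p = 0.0393 and 0.0123). The probes nearest to Hsf1 in pattern were those of Dctn5, Dctn1 and Aifm1, with root mean square differences of 0.048, 0.051 and 0.061 where the median probe lay at 0.401.

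**Figure D3:**
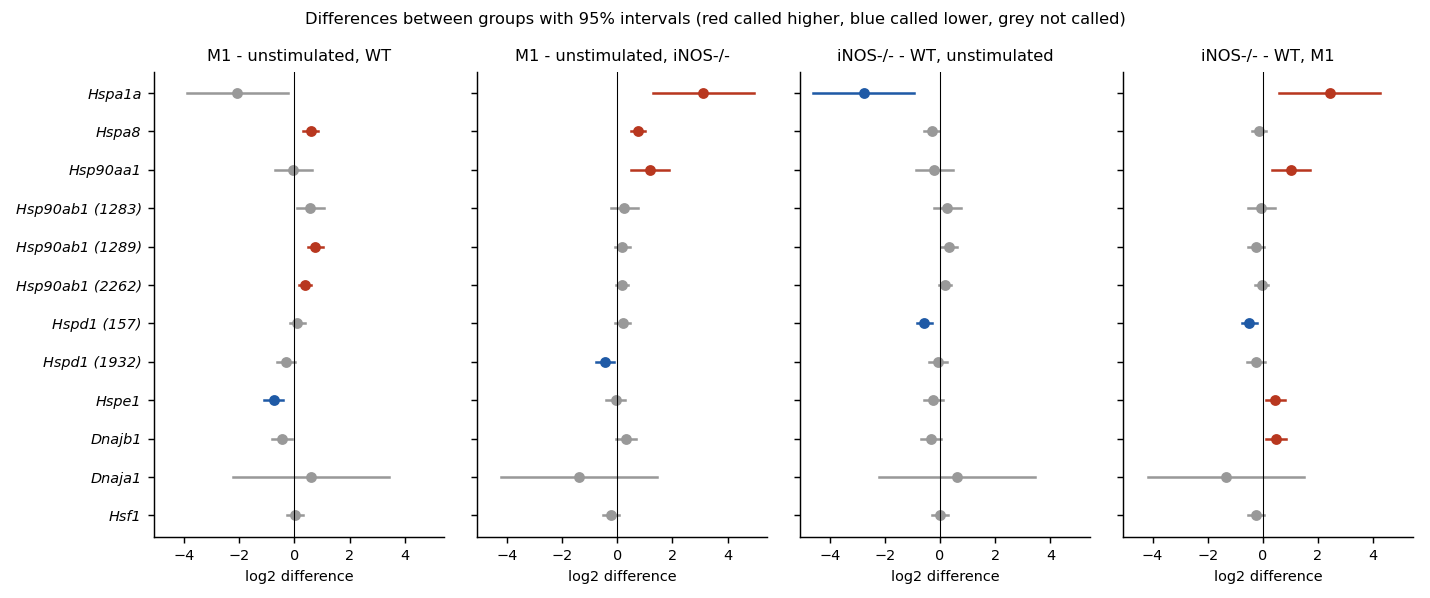
Log2 differences (horizontal axis) with 95% intervals for the 12 tested chaperone probes in 4 comparisons, red where called higher, blue where called lower and grey where not called. Hspa1a has the longest intervals after Dnaja1 and lies on opposite sides of 0 in the right-hand panels, -2.77 between unstimulated groups and 2.42 between M1 groups.

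A further 82 genes of the chaperone machinery were listed by role, of which 72 were on the array with 95 probes and 63 genes with 78 probes were tested. Between the M1 groups, 31 of these probes were higher and 14 lower in iNOS-/- cells, 57.7% called against the background of 48.2%, with a median of 0.24 against -0.03 over all tested probes. In the iNOS-/- response 29 rose and 13 fell (53.8% against 50.3%), with a median of 0.26 against 0.00. In WT cells 10 rose and 14 fell (30.8% against 35.1%), with a median of -0.07 against 0.09. In unstimulated cells 4 were higher and 11 lower in iNOS-/- cells (19.2% against 32.2%), with a median of -0.11 against 0, and the 4 higher ones were Cdc37, Fkbp5, Dnajc2 and Pfdn4. The response differed for 34, with 26 more positive and 8 more negative in iNOS-/- cells (43.6% against 42.0%). Under quantile normalization the split of the iNOS-/- response was 23 rising and 21 falling (29.5% and 26.9%, against 21.3% and 29.5% of all tested probes). That of the difference between responses was 24 and 14 (30.8% and 17.9%, against 19.2% and 22.9%). In unstimulated cells the split was 10 higher and 11 lower under quantile normalization (12.8% and 14.1%, against 16.6% and 16% of all tested probes). Under neqc it was 14 and 17 (17.9% and 21.8%, against 19.6% and 21.3%). With an intensity trend in the fit it was 10 and 17, for which no share of all tested probes is given.

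Subunits of TRiC, the cytosolic chaperonin that folds actin and tubulin, and of prefoldin, which delivers clients to it, were higher in iNOS-/- M1 than in WT M1 cells at 10 of 16 probes and lower at none, where 22.9% of all tested probes were called higher and 25.3% lower. Under quantile normalization and neqc, 7 were higher and 2 lower (43.8% and 12.5%). Of all tested probes 21.9% were then higher and 25.5% lower under quantile normalization, and 26.8% and 28% under neqc. Cct5 was 3.49-fold higher (log2 difference 1.80, SE 0.24, adjusted p = 0.00265). Its means were 5.16 in WT unstimulated, 3.88 in WT M1, 4.81 in iNOS-/- unstimulated and 5.68 in iNOS-/- M1 cells, so it fell by 1.28 in WT cells (SE 0.24, adjusted p = 0.0126). The list's median was 0.52 between the M1 groups and 0.12 between the unstimulated groups.

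J-domain proteins other than the listed chaperones were called higher in iNOS-/- M1 cells at 9 of 17 probes and lower at 2, those of Dnaja3 and Dnajc5, beside the same background of 22.9% and 25.3%. The counts were 9 and 2 under quantile normalization (52.9% and 11.8%, against 21.9% and 25.5% of all tested probes). Under neqc they were 10 and 2 (58.8% and 11.8%, against 26.8% and 28%). Dnajb4 was higher by 1.76 (SE 0.54, adjusted p = 0.0447). Dnajb6, which holds back aggregation, rose 5.42-fold on stimulation of iNOS-/- cells at 1 of its probes (log2 difference 2.44, SE 0.15, adjusted p = 0.000168). At its other tested probe the means also rose, from 8.53 to 10.69. In the WT response, where 35.1% of all tested probes were called, 2 of 17 probes were called, both lower: Dnajb2 (-0.84, adjusted p = 0.0492) and Dnajc19.

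Other HSP70 proteins gave 7 tested probes. Hspa2, an HSP70 best known from testis, was called higher in iNOS-/- M1 cells at both of its probes. One of these had high and low groups in the order of Hspa1a, with means of 7.37 in WT unstimulated, 6.66 in WT M1, 6.00 in iNOS-/- unstimulated and 8.46 in iNOS-/- M1 cells, whereas the other stood at 4.19 and 4.21 in the WT groups. The first probe was higher by 1.80 between the M1 groups (SE 0.12, adjusted p = 0.000341), lower by 1.36 in the unstimulated ones (log2 difference -1.36, SE 0.12, adjusted p = 0.00115), and its response differed by 3.16 (SE 0.17, adjusted p = 0.000321). Both probes of Hspa9, the mitochondrial HSP70, were called lower in iNOS-/- M1 cells (-0.40 and -0.46). Hspa4l, of the HSP110 group, rose by 3.27 in iNOS-/- cells (SE 1.02, adjusted p = 0.0447), from a group where 1 of 2 arrays detected it.

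Among partners of HSP70, 3 of 8 probes (37.5% against 48.2%) were called between the M1 groups, St13 and Bag1 higher and Grpel1 lower. In unstimulated cells 4 of 8 were called (50% against 32.2%), all lower in iNOS-/- cells: Bag3, Bag4, Bag5 and Grpel2. Of all tested probes 15.4% were called lower there. Bag3, an HSF1 target that links HSP70 to autophagy, was lower by 1.14 in unstimulated iNOS-/- cells (log2 difference -1.14, SE 0.09, adjusted p = 0.000825). Partners of HSP90 split evenly between the M1 groups, 6 of 24 probes higher and 6 lower (50% called against 48.2%). Fkbp5, an immunophilin known as a glucocorticoid target, was lower in iNOS-/- M1 cells (-1.03, SE 0.14, adjusted p = 0.00282) and higher in unstimulated iNOS-/- cells (1.34, SE 0.14, adjusted p = 0.00204), the reverse of the order of Hspa1a. Cdc37, which brings kinases to HSP90, was higher in unstimulated iNOS-/- cells by 1.76 (SE 0.23, adjusted p = 0.00412) and rose by 1.67 in WT cells (SE 0.23, adjusted p = 0.00466). Ahsa2 was not detected in iNOS-/- M1 cells and was at least 2.99-fold higher in WT M1 cells (adjusted p = 0.000844).

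Of 8 small heat shock protein probes 3 were tested. Cryab, a small chaperone, was not detected on either array of both iNOS-/- groups, and was at least 2.26-fold higher in WT M1 than in iNOS-/- M1 cells (adjusted p = 0.00381) and at least 1.95-fold higher in WT than in iNOS-/- unstimulated cells (adjusted p = 0.0401). Hspb1 was not detected in WT M1 cells and was at least 1.91-fold higher in iNOS-/- M1 cells (adjusted p = 0.0324), while Hspb6 was lower there (-0.29, adjusted p = 0.0319). Of the other heat shock factor genes, Hsf2 was higher in iNOS-/- M1 than in WT M1 cells (1.45, SE 0.25, adjusted p = 0.00640), with means of 6.75 and 5.30, and Hsbp1, whose product binds HSF1, was lower (-0.47, SE 0.10, adjusted p = 0.0137). Hsf4 was not called.

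**Figure D4:**
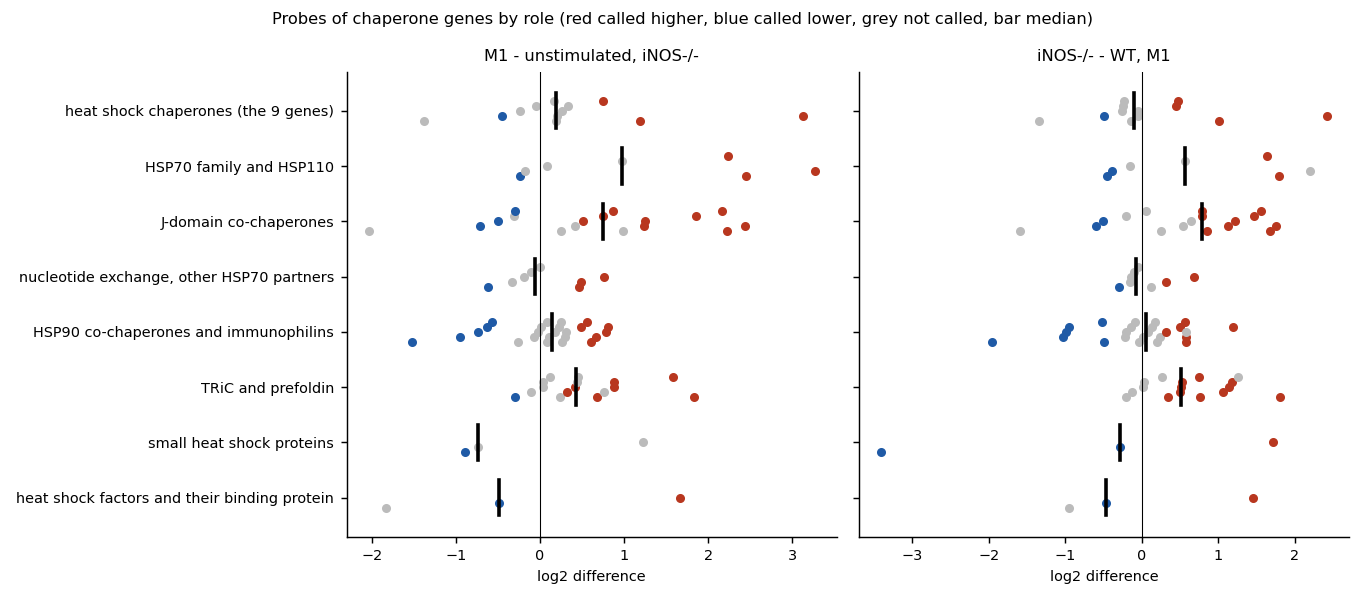
Log2 differences (horizontal axis) of each tested probe of the 9 heat shock chaperone genes and of 7 lists of other chaperone genes (rows), with the list medians as bars, for iNOS-/- M1 minus iNOS-/- unstimulated on the left and iNOS-/- M1 minus WT M1 on the right. In the right panel the TRiC and prefoldin row has 10 probes called higher and none lower, with a median of 0.52, and the row of HSP90 partners has 6 each way.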

How the data were processed

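RNA of 8 samples was hybridised to Illumina bead arrays, named MouseRef-8 in the series and MouseWG-8 v2.0 in the methods. The authors deposited 1 bead-averaged intensity for every probe on every array, and beside it a detection p-value, as GenomeStudio wrote them. The header gives the normalization as none, and its analysis name reads as without background subtraction. Since 25.2% to 27.2% of the deposited intensity values per array lay below 0, they were nonetheless treated as background-subtracted, against that name, and no further background was taken off. The authors' methods corrected the background, normalized by rank-invariant probes, raised negatives to 1 and took log2 before limma, given in the submitters' processing notes as version 3.14.4. The number of columns without a sample was 0.

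Here each array was scaled with MASS 7.3.60.0.1, by a robust fit with no intercept on probes whose rank lay within 0.05 of that in the mean array, between ranks 0.5 and 0.9. The scale factors were 0.813 to 1.30. Values under 1 were set to 1 and log2 was taken of the deposited intensities so scaled. Probes detected (p-value under 0.05) on 2 or more arrays entered a one-way model of 4 groups in limma 3.58.1 (R 4.3.3), with Benjamini-Hochberg adjustment over 13868 probes. All p-values are two-sided. For a probe detected on neither array of a group, the bound sets the bright group against, per dim array, the higher of the probe's value and the lowest detected value. Each bound, written as at least a given fold, compares group means and leaves out the spread between arrays. The number of arrays, 2 per group, limits the precision. The procedure was tested on simulated data.

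The members and gene lists were chosen with earlier results of these data known. Genes outside them are named by a rule: Nos2 and Il6 as checks, up to 3 of the largest called changes each way per comparison, counts of 5 or fewer by name, and the 3 nearest patterns to Hspa1a and Hsf1. Cell type markers are also named where they set a list's sum or went against it. Sequences are RefSeq's, GRCm38.p6, or the array's probe column.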

Additional observations from a re-analysis of the deposited data

Results flagged for a closer look

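For 4 chaperone probes the response to stimulation differed between genotypes by the interaction term of the limma fit, 33.3% of those tested against 42.0% of all tested probes. Hspa1a rose in iNOS-/- cells and lay lower in WT M1 than in WT unstimulated arrays, a difference of 5.19 (adjusted p = 0.0124). Its probe was detected on 0 of 2 WT M1 and 1 of 2 iNOS-/- unstimulated arrays, so this size rests partly on values near the detection limit, and it was 1.82 under neqc (adjusted p = 1.36e-05) and 0.88 with values under 16 set to 16 (adjusted p = 0.0265). Dnajb1 differed the same way, by 0.80 (adjusted p = 0.0277), although neither of its responses was called alone. Hspe1 fell in WT cells and was not called in iNOS-/- cells, a difference of 0.69 (adjusted p = 0.0377). Hsp90ab1 at position 1289 rose in WT cells and was not called in iNOS-/- cells, a difference of -0.58 (adjusted p = 0.0343).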

How the results depend on the processing

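The number of called chaperone probes was 5 between the M1 groups, 2 between the unstimulated groups, 4 in the WT response, 4 in the iNOS-/- response and 4 for the difference between responses. Under quantile normalization the first became 9 (3 higher, 6 lower) and the second 4. The first was then 25% higher and 50% lower, against 21.9% and 25.5% of all tested probes. Under neqc the M1 groups had 9, the unstimulated groups 4, the WT response 7 and the difference between responses 8. Between the M1 groups 25% were higher and 50% lower under neqc, against 26.8% and 28% of all tested probes. For the difference between responses the shares were 25% and 41.7%, against 25.9% and 25.1%. The WT response was then 33.3% higher and 25% lower, against 19.8% and 24.7% of all tested probes. Under neqc the other chaperones had 31 in place of 15 between the unstimulated groups. Of their probes 17.9% were then higher and 21.8% lower, against 19.6% and 21.3% of all tested probes. With a floor of 16 the unstimulated groups had 1. Without a detection filter the M1 groups had 1, the unstimulated groups 1 and the difference between responses 2. With the compared arrays fitted alone, the unstimulated groups and the iNOS-/- response had 1 each, and the other chaperones 8 in place of 24 in the WT response. With an intensity trend the unstimulated groups had 5, the WT response 8, and the other chaperones 27 between the unstimulated groups. At a change of at least 2-fold the chaperone counts were 2, 1, 0, 2 and 1, and those of the other chaperones 18, 6, 3, 13 and 20. No share of all tested probes is given for settings other than the scalings, nor for the block and omitted arrays below. Those counts thus do not compare the chaperones with other probes.

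Same-numbered arrays did not deviate together over the tested probes (r -0.0375 to 0.0247). The labels do not say whether they share an animal, culture or day, and these correlations cannot tell. With a replicate block the chaperone counts were 3, 1, 5, 4 and 3, and those of the other chaperones 38, 9, 20, 35 and 27, and Hspa1a lost its calls between the M1 groups (adjusted p = 0.0616) and between the unstimulated groups (adjusted p = 0.0614). Hspe1 lost its M1 difference (adjusted p = 0.0716) and its difference between responses (adjusted p = 0.0658), and Hsp90ab1 at 1289 its difference between responses (adjusted p = 0.0501). The block gained the difference between responses of Hsp90aa1 (adjusted p = 0.0369) and the WT rise of Hsp90ab1 at 1283 (adjusted p = 0.0494), and left the differences themselves as they were.

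Leaving out 1 array at a time gave 0 to 4 called chaperone probes between the M1 groups, 0 to 1 between the unstimulated groups, 1 to 6 in the WT response, 1 to 4 in the iNOS-/- response and 1 to 3 for the difference between responses. The other chaperones gave 29 to 38, 5 to 12, 10 to 20, 26 to 36 and 21 to 27.

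Of the 1063 values under alternatives, 876 kept their direction and side of the threshold, 103 lost and 57 gained a call, and 27 turned direction, none of them called as reported. Under quantile normalization and neqc, Hspd1 at 1932 turned between the unstimulated groups to 0.042 and 0.042, Hspd1 at 157 in the WT response to -0.042 and -0.036, Hsp90ab1 in the iNOS-/- response to -0.19 and -0.19 at 1289 and to -0.44 and -0.44 at 2262, and Hspa8 in the difference between responses to -0.41 and -0.40. With the intercept line Dnaja1 turned to 0.080 between the M1 groups, -0.22 in the WT response and 0.051 for the difference between responses. Over the omitted arrays, values spanned 0 between the M1 groups for Hsp90ab1 at 1283 (-0.25 to 0.14) and at 2262 (-0.10 to 0.00040) and Dnaja1 (-3.06 to 0.36). Between the unstimulated groups they did so for Hsp90aa1 (-0.57 to 0.15), Hspd1 at 1932 (-0.24 to 0.070) and Hsf1 (-0.046 to 0.049). They did so in the WT response for Hsp90aa1 (-0.24 to 0.18) and Hsf1 (-0.11 to 0.16), in the iNOS-/- response for Hspe1 (-0.22 to 0.11) and Dnaja1 (-3.08 to 0.33), and for the difference between responses for Hspd1 at 157 (-0.0015 to 0.17). The cause of these changes was not tested.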
